A study of Homo sapiens with 22 samples.

Results

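The cells compared here are WM989 melanoma cells sorted for high levels of both EGFR and NGFR (EGFR/NGFR-High, 3 libraries) and WM989 cells sorted for high EGFR (EGFR-High, 3 libraries), each profiled by ATAC-seq. They were chosen by the sort named in the sample labels and make up 6 of the 12 ATAC libraries and of the 22 samples of the series. The other ATAC libraries are 3 of NGFR-High cells and 3 of cells labelled Mix in the sample labels. The study's methods list a sort negative for both markers, but neither source ties that sort to the name Mix. All of these cells come from WM989, 1 human melanoma line with mutated BRAF, and tagmentation followed directly on the sort. No label names a drug for them, and neither the labels nor the methods say whether the EGFR-High gate left out cells with high NGFR. Nothing in the labels ties a library number to a separate culture, so p-values measure only the spread between these sorted samples, which may be technical. The question of the comparison is what high NGFR adds to high EGFR in the open chromatin of the cell.

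EGFR is a receptor tyrosine kinase that binds EGF, TGF-alpha and related ligands and signals through the MAP kinase pathway. NGFR (p75NTR) is the low-affinity neurotrophin receptor and a classical marker of neural crest cells, the embryonic cells from which melanocytes arise. Melanoma cells that carry either receptor are known to have lost part of their pigment cell programme, which is driven by the transcription factors MITF and SOX10. ATAC-seq inserts adapters into DNA that is free of nucleosomes, so that peaks of reads mark open promoters and enhancers. AP-1 is a family of dimers of JUN and FOS proteins that bind the palindrome around TGACTCA in enhancers, and TEAD proteins bind GGAATG as partners of YAP.

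The sequences of 7 regions are shown first. Each runs from 50 bases before to 50 bases after the highest summit of 1 open region, on the plus strand of hg38, with matches to the AP-1 letters TGANTCA, the TEAD letters GGAATG and the SOX letters ACAATG or ACAAAG in capitals on whichever strand they were found. The first 5 regions were more open in EGFR/NGFR-High cells, with values given below, and were chosen because they hold AP-1 letters, alone, with a TEAD match or in a pair. Such a match lies within 50 bases of the summit in 48.4% of the regions that were higher (95% Wilson interval 45.7 to 51.2%), in 3.56% of those that were lower and in 12.2% of all. Of the regions with the largest increase, those near STRADB, AKR1B15, WNT5B, OPTC, GPC1 and COL5A1 hold none in that stretch.

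B4GALNT2, chr17:49102052-49102152: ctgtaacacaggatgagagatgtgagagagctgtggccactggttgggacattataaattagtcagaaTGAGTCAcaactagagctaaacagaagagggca

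CD28, chr2:203759789-203759889: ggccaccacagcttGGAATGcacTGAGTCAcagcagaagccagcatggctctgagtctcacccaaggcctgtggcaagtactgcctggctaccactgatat

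ITGA3, chr17:50051176-50051276: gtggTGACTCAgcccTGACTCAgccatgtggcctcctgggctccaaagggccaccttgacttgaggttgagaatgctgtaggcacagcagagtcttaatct

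PMEPA1, chr20:57772718-57772818: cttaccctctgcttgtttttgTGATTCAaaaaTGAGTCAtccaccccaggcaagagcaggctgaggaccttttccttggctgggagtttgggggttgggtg

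ITGB5, chr3:124860748-124860848: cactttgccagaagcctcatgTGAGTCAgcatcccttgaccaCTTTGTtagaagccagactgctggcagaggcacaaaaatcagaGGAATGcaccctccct

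The following 2 regions had the largest decrease in EGFR/NGFR-High cells and hold none of these letters in the stretch shown.

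ZFP36L2, chr2:43140366-43140466: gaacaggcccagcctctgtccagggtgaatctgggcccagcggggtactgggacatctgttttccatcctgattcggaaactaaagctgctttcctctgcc

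MYO1E, chr15:59157928-59158028: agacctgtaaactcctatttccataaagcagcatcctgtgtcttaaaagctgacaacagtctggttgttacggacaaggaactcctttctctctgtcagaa

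AP-1 letters were present within 100 bases of the summit in 64.2% of the 1282 regions that were higher in EGFR/NGFR-High cells, against 18.1% of all 86712 regions tested and 8.7% of the 253 regions that were lower. The 95% Wilson intervals of these shares are 61.5 to 66.8%, 17.8 to 18.3% and 5.81 to 12.8%, and cover counting error only. TEAD letters were in 22.4% of the higher regions, 14.6% of the lower and 15.2% of all. The letters CAGCTG or CATCTG, which many bHLH proteins bind, were in 35.1% of the higher and 32.8% of the lower regions against 27.3% of all. The E-box letters CACGTG or CATGTG, which MITF binds among other factors, were in 17.8% of the higher, 26.1% of the lower and 18.8% of all regions, and the Wilson interval of the higher regions holds the share of all. Within 50 bases of the summit these E-box shares were 10.5%, 12.3% (8.77 to 16.9%) and 10.6%, and the interval of the lower regions holds the share of all. ETS letters (CCGGAA), which are frequent in promoters, were in 2.96% of the higher and 1.98% of the lower regions against 6.03% of all. SOX letters (36.7% of the higher and 35.6% of the lower against 32.5% of all), RUNX letters (TGTGGT, 23.4% and 25.3% against 20.8%) and GATA letters (AGATAA, 9.28% and 10.3% against 10.2%) lay closer to the share in all regions. Letters of CRE (TGACGTCA, 0.234% and 0%, with an upper Wilson bound of 1.5%, against 0.48%), TFAP2 (GCCNNNGGC, 10.9% and 5.53% against 10.4%), NFI (TTGGCA, 12.3% and 9.09% against 10.9%) and FOX proteins (TGTTTAC, 3.12% and 4.35% against 2.64%) were searched as well, all on both strands. The median GC content was 48.3% in the higher, 45.3% in the lower and 47.8% in all windows. Among regions away from annotated starts the AP-1 share was 64.0% of the higher, 9.25% of the lower and 20.6% of all. There TFAP2 letters were in 11.17% of the higher regions (Wilson interval 9.528 to 13.04%), 4.405% of the lower and 7.803% of all. TEAD letters were in 22.98%, 16.3% and 16.55% in the same order. ETS letters were in 2.832% (2.043 to 3.913%), 1.762% and 3.415%, and the interval of the higher regions holds the share of all. SOX (37.14%, 38.77% and 36.19%) and RUNX letters (23.87%, 26.87% and 23.34%) lay near the share of all. A match of letters is a description of the sequence, and no factor was measured at these regions.

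**Figure D1:**
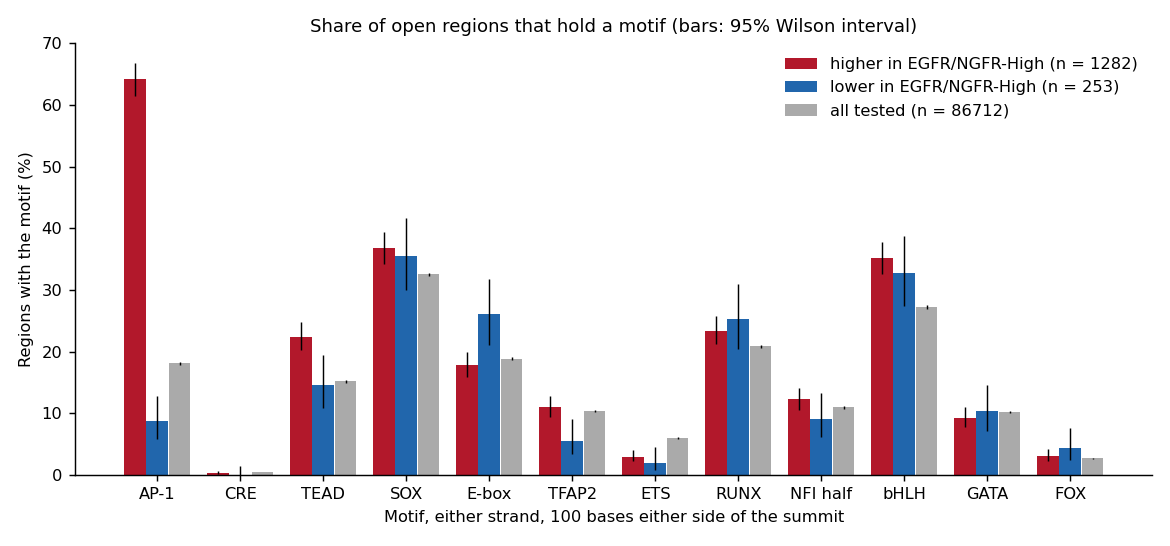
Percent of open regions (vertical axis) that hold each motif on either strand within 100 bases of the summit, for the 1282 regions higher and the 253 lower in EGFR/NGFR-High and for all 86712 tested regions; error bars are 95% Wilson intervals. The AP-1 share of the higher regions stands at 64.2% against 18.1% of all regions, whereas the TEAD share stands at 22.4% against 15.2%.

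Read the other way, 5.25% of the 15679 tested regions with AP-1 letters were higher in EGFR/NGFR-High cells, against 0.646% of the regions without them. The median log2 difference was 0.13 with the letters and -0.04 without. For TEAD letters the share called higher was 2.18% with them and 1.35% without. Regions with AP-1 letters were called lower in 0.14% of cases, against 0.325% without.

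The peak lists of the 6 libraries hold 216450 to 271153 entries, and many entries repeat an interval with another summit. After the repeats were dropped and chromosomes 1 to 22 and X kept, EGFR/NGFR-High libraries had 180754, 173808 and 162297 distinct peaks and EGFR-High libraries 148850, 166828 and 154269. The mean was 1.1 times as high in EGFR/NGFR-High (exact two-sided permutation p = 0.2, when 3 libraries against 3 cannot give less than 0.1). The height of a peak is its fold enrichment. This is the read pileup at the summit plus 1, over a background plus 1 that is the same for the whole genome in these files. That background shows depth: it was 2.36 reads in EGFR/NGFR-High library 1 and 1.02 to 1.34 in the 5 others, so that library 1 was the deepest. For the same ratio of pileup to background, the added 1 makes the fold enrichment higher in a deeper library. Deposited values of single libraries are given below without correction for this. The peaks of 2 libraries of the same sort shared a mean Jaccard index (shared bases over joined bases) of 0.708, against 0.691 between sorts (exact one-sided permutation p = 0.1). At the starts of all 6 melanocyte genes that were checked (MITF, SOX10, PMEL, MLANA, TYR and DCT) a peak was found in all 6 libraries. Of 9 genes that mark blood, endothelial, skin, red and liver cells, 8 had no peak at the start in any of the 6, and only CDH5 had one, with a fold enrichment of 29.9 to 49.4.

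The starts of the sorted genes themselves differed in the direction of the labels for NGFR. The strongest region at the NGFR start (ENSG00000064300.9) is chr17:49496006-49497496 in the first part of the gene. It had a fold enrichment of 28.3, 21.3 and 21.3 in EGFR/NGFR-High and of 13.7, 13.7 and 13.7 in EGFR-High cells. The groups do not overlap, with a mean of 23.6 ± 4.02 (SD, n = 3) against 13.7 ± 0.0283 (n = 3) and an exact two-sided permutation p of 0.1, the smallest that the design allows. NGFR-High libraries were at 29.4, 22.7 and 22.1 at this region and the Mix libraries at 13.4, 12.3 and 12.6. The EGFR/NGFR-High and NGFR-High libraries were thus above the EGFR-High and Mix libraries. Over all regions and on the normalized scale described next, the log2 difference was 0.53 ± 0.19 (SE) with limma's adjusted p of 0.163, so this start was not among the regions called.

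At the EGFR start (ENSG00000146648.21), chr7:55018530-55019753, the fold enrichment was 14.0, 11.3 and 7.94 in EGFR/NGFR-High and 14.5, 14.2 and 14.2 in EGFR-High cells. Every EGFR/NGFR-High library was lower than every EGFR-High library (exact two-sided permutation p = 0.1), while limma's adjusted p was 0.141. All 6 libraries were above the Mix ones, which read 5.38, 4.24 and 5.81. The NGFR-High libraries read 9.54, 9.62 and 7.05, above the Mix ones and overlapping EGFR/NGFR-High. Without EGFR/NGFR-High library 3 the difference at this start changed from -3.21 to -1.63 fold enrichment units. A peak at the EGFR start was present in all 12 libraries.

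Across the genome, 1282 of 86712 regions with a peak in all 6 libraries were higher in EGFR/NGFR-High (1.48% of those tested) and 253 were lower (0.292%), so that 83.5% of the called regions were higher. The test was limma on the log2 fold enrichment after quantile normalization, with a Benjamini-Hochberg adjusted p under 0.05, and folds and log2 differences of regions are on that scale, whereas the values of single libraries are as deposited. A called region that was higher had a median fold enrichment of 28.3, 20.3 and 19.9 in the EGFR/NGFR-High libraries against 10.2, 9.93 and 9.3 in EGFR-High, and a median difference of 1.9-fold. A called region that was lower had a median of 18.5, 16.1 and 15.9 against 22.6, 25.5 and 23, and a median difference of 1.69-fold. The fold was over 2 in 452 of the higher and 36 of the lower regions. The 3 normalized values of a sort lay wholly above those of the other in 1247 of the 1282 higher regions and wholly below in 248 of the 253 lower regions, while 8.49% of all tested regions had EGFR/NGFR-High wholly above and 8.28% wholly below. The regions were called on these same values, so the separation follows in large part from the call.

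The number of called regions depended on single libraries and on the setting. With all 12 libraries in the fit, 779 higher and 157 lower regions were called of 78209. Of the 1535 called regions 1163 have a value there, so this count differs in the regions tested as well as in the fit. Without EGFR/NGFR-High library 1, the deepest, 198 higher and 50 lower regions were called. Without library 2 they were 710 and 103, and without library 3 838 and 153. Leaving out EGFR-High library 2 gave 616 and 76, and EGFR-High library 3 gave 844 and 164. All 1535 called regions kept their direction in each of the fits that leave out 1 library. They were called on these same libraries, and in most the sorts did not overlap, so a change of direction was hardly possible. Without normalization the median of all regions was 0.20 higher in EGFR/NGFR-High (log2), and the calls were 4865 higher and 32 lower. With median centring they were 1173 and 544, a share of higher calls of 68.3%. With the library number as a block they were 1783 and 517, a share of 77.5%. With the added 1 taken out of the fold enrichment, a setting chosen after the data were seen, they were 1272 and 248. When a library without a peak was given a fold enrichment of 1, no region passed the adjusted threshold, and 17202 of 149988 had an unadjusted p under 0.05.

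The regions that changed were mostly away from promoters. A promoter, here within 1 kb of an annotated start of a protein-coding gene, accounted for 3.59% of the higher regions, 10.3% of the lower regions and 17.6% of all tested. Intergenic regions were 50.7% of the higher, 41.9% of the lower and 40.5% of all, and introns 40.3%, 41.9% and 35.3%. The median distance to the nearest start was 33.8 kb for the higher, 42.4 kb for the lower and 22.9 kb for all regions.

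Around NGFR, within 100 kb of the gene, 4 of 23 tested regions were higher and none was lower by limma, against 1.48% and 0.292% of all tested regions, with a median log2 difference of 0.10 over the 23. The largest difference was at chr17:49456092-49457264, upstream of the gene, with a fold enrichment of 37.5, 17.0 and 20.8 in EGFR/NGFR-High and 9.39, 6.15 and 7.34 in EGFR-High (2.65-fold, log2 difference 1.41 ± 0.24, adjusted p = 0.000175). Beside it, chr17:49453711-49454563 stood at 41.1, 27.9 and 34.2 against 12.8, 14.7 and 10.8 (2.29-fold, adjusted p = 3.41e-05). The NGFR-High libraries read 43.3, 44.2 and 43.3 at this second region and the Mix libraries 8.96, 14.6 and 10.7, so the EGFR/NGFR-High and NGFR-High libraries were again above the EGFR-High and Mix libraries. The start nearest to that region is that of PHB1. The remaining called regions were at chr17:49438044-49440762, further upstream (1.55-fold, adjusted p = 0.00065), and at chr17:49514804-49516533, at the end of the gene (1.5-fold, adjusted p = 0.000272). Of the 33 regions with a peak in at least 3 of the 12 libraries, 2 had a peak in 3 of 3 EGFR/NGFR-High and in no EGFR-High library and 0 the reverse, when 2.42% and 0.182% of all such regions did.

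Around EGFR, 2 of 19 tested regions were higher and none was lower by limma, against 1.48% and 0.292% of all tested regions, with a median log2 difference of -0.01 over the 19. Both lie next to each other in an intron of EGFR. The region chr7:55132614-55133560 had a fold enrichment of 23.2, 17.0 and 20.3 in EGFR/NGFR-High against 7.68, 12.3 and 6.36 in EGFR-High (2.01-fold, log2 difference 1.01 ± 0.23, adjusted p = 0.00956). It read 10.7, 14.4 and 16.0 in NGFR-High and 4.03, 4.24 and 5.32 in Mix libraries. Without EGFR-High library 3 the adjusted p was 0.0777, without EGFR/NGFR-High library 1 it was 0.115 and without library 3 it was 0.0723, while the log2 difference stayed at 0.81, 0.99 and 0.94. Its neighbour chr7:55133633-55134136 stood at 12.8, 8.51 and 11.4 against 4.27, 5.2 and 4.41 (adjusted p = 0.0238). Its call was lost without any 1 of 5 libraries (adjusted p = 0.0541 to 0.173) and kept without EGFR/NGFR-High library 2, while the log2 difference stayed between 0.92 and 1.08 in those 5 fits against 1.01 with all 6 libraries. Of the 34 regions around EGFR, 2 had a peak in 3 of 3 EGFR/NGFR-High and in no EGFR-High library and 1 the reverse. Of all regions with a peak in at least 3 of the 12 libraries, 2.42% and 0.182% did. The log2 difference at the EGFR start was -0.66, of the opposite sign to these intronic regions, and did not pass the test.

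**Figure D2:**
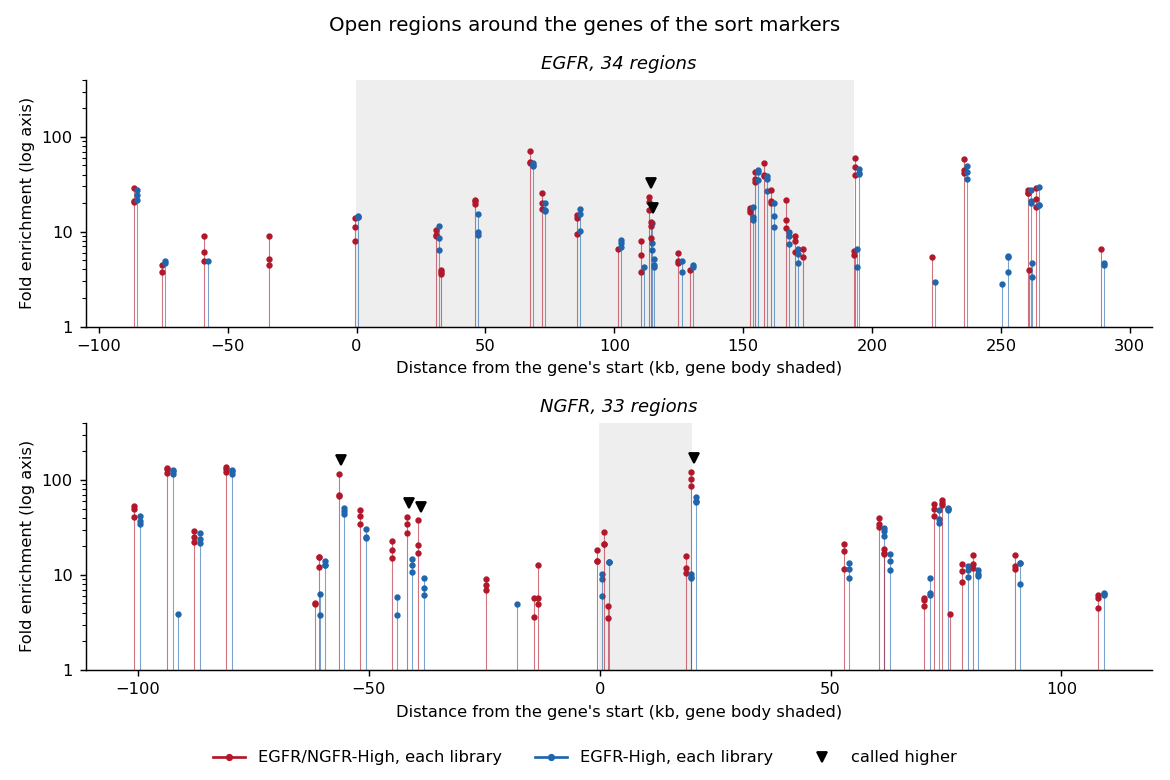
Fold enrichment (vertical, log axis) of each open region within 100 kb of EGFR (34 regions) and NGFR (33 regions) by distance from the start of the gene, with 1 point for each library that has a peak; triangles mark called regions. The 4 triangles at NGFR stand upstream and at the end of the gene, and the 2 at EGFR in its body.

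Among called regions without overlap of the sorts and within 100 kb of a start, 1 per gene, the 10 with the largest increase lay near STRADB, CD28, AKR1B15, WNT5B, OPTC, GPC1, B4GALNT2, COL5A1, HECW2 and COPS8, named by the nearest start. The first, in an intron at chr2:201532606-201533155, had a fold enrichment of 25.6, 16.5 and 20.3 in EGFR/NGFR-High and of 6.4, 4.26 and 4.41 in EGFR-High (3.53-fold, log2 difference 1.82 ± 0.25, adjusted p = 6.3e-06). STRADB is a pseudokinase partner of the kinase LKB1. The region near WNT5B, a ligand of non-canonical Wnt signalling, stood at 22.6, 15.6 and 12.4 against 2.99, 5.67 and 5.38 (3.14-fold, adjusted p = 0.000117). The region near COL5A1, a fibrillar collagen chain, stood at 27.4, 17.5 and 19.9 against 8.54, 4.26 and 5.87 (2.99-fold, adjusted p = 7.71e-05). At GPC1, a glypican that carries heparan sulfate, the values were 19.0, 17.5 and 14.4 against 5.12, 5.2 and 3.92 (3.1-fold, adjusted p = 5.27e-05).

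The region shown above near B4GALNT2, a glycosyltransferase, is chr17:49101624-49102285 and read 30.7, 18.0 and 18.4 against 5.12, 5.2 and 8.81 (3.01-fold). The region near CD28, a T cell co-receptor, is chr2:203759074-203760278 and read 21.7, 18.0 and 12.9 against 4.7, 4.26 and 3.92 (3.46-fold). The nearest start need not belong to the gene that such a region serves. In the NGFR-High libraries all 10 had a peak in 3 of 3 libraries, while in the Mix ones only the region near HECW2, a ubiquitin ligase, had a peak in all 3. AP-1 letters were within 100 bases of the summit in 7 of the 10 and TEAD letters in 4.

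The regions with the largest decrease included those near ZFP36L2, MYO1E, PPFIA1, STMP1, ADAM22, GSG1L, USP50, IER3 and NEFM. At chr2:43139984-43140691, 86190 bases from the start of ZFP36L2, an RNA-binding protein that speeds mRNA decay, the fold enrichment was 5.06, 5.67 and 3.97 in EGFR/NGFR-High and 14.9, 12.3 and 14.2 in EGFR-High (log2 difference -1.70 ± 0.26, adjusted p = 3.41e-05). In an intron of MYO1E, an unconventional myosin, chr15:59157428-59158258 stood at 5.06, 6.14 and 6.95 against 21.3, 11.4 and 15.2 (log2 difference -1.56, adjusted p = 0.000168). In an intron of PPFIA1, a liprin of cell adhesion sites, chr11:70290033-70290733 stood at 3.87, 4.25 and 4.47 against 11.95, 10.4 and 10.3 (log2 difference -1.54, adjusted p = 0.000182).

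These 3 regions had no peak in any Mix library, and in NGFR-High they had a peak in 1, 0 and 2 of 3 libraries, so that EGFR-High was the only sort of the 4 in which they reached a fold enrichment of 10. The others were not all of that kind. At the region near GSG1L, which encodes an auxiliary subunit of AMPA receptors, the values were 11.6, 7.56 and 4.96 in EGFR/NGFR-High against 17.1, 12.3 and 14.2 in EGFR-High (log2 difference -1.17 ± 0.25, adjusted p = 0.00479). There every Mix library had a peak, at 10.75, 15.1 and 11.1, and every NGFR-High library one at 7.16, 8.31 and 12.7. AP-1 letters were within 100 bases of the summit in 1 of the 10 regions with the largest decrease and TEAD letters in 0.

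**Figure D3:**
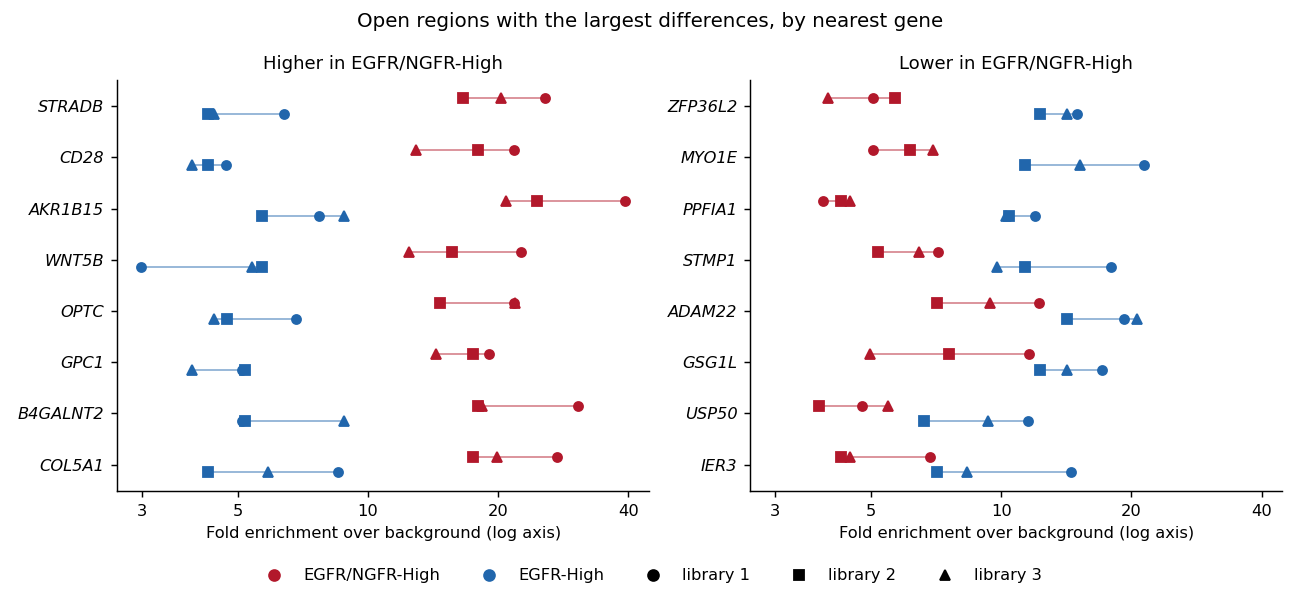
Fold enrichment over background (horizontal, log axis) in each of the 6 libraries at the 8 regions with the largest increase (left) and the 8 with the largest decrease (right), named by the nearest gene; colours give the sort, symbols the library number, and a line spans each sort's lowest to highest value. The regions were chosen among called regions without overlap between the sorts within 100 kb of a start, 1 per gene, and the STRADB region reads 16.5 to 25.6 in EGFR/NGFR-High against 4.26 to 6.4 in EGFR-High.

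The called regions were spread over many genes. The 1282 higher regions had 863 different nearest genes within 100 kb, 747 of them with 1 region. ANO1, a calcium-activated chloride channel, CADPS, a factor of vesicle release, and ITGA3, an integrin chain, had 4 each. For ITGA3 this was 4 of the 7 tested regions nearest to it, for ANO1 4 of 31 and for CADPS 4 of 50. Among the genes with 3 were PMEPA1 (of 7 tested), CCN5 (of 10), ST8SIA1 (of 15), CDC42EP3 (of 18), TRIO (of 24), TIAM1 (of 34) and MITF (of 64), when 1.48% of all tested regions were higher. Of the genes near lower regions, 5 had 2 regions, namely USP50 (of 3 tested), UCP3 (of 9), EXT1 (of 18), PALLD (of 20) and DISP1 (of 21), when 0.292% of all were lower.

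None of the 179 regions at starts of the 235 listed genes passed limma's adjusted threshold, and 24 of them had an unadjusted p under 0.05, 13 higher and 11 lower. Over all 15243 start regions 0.302% were called higher and 0.171% lower, and 1427 (9.36%) had an unadjusted p under 0.05. Away from the starts, within 100 kb of a listed gene that was the nearest, 58 of 1414 regions were higher (4.1%) and 2 were lower (0.141%), against 1.78% and 0.289% of all such regions of any gene. The lists were chosen with earlier results of these data known, so the counts describe these genes and are no independent evidence. AP-1 letters were within 100 bases of the summit in 39 of the 58. Of the 60 called regions 44 lost the call without EGFR/NGFR-High library 1, and 18 to 28 without each of the other libraries except EGFR-High library 1, where 9 did. In 15 the call held in every setting that tested the region but that of absent peaks at a fold enrichment of 1. Among them were regions near TGFA, NGFR, AQP1, MITF, F2RL1, CAV1, SMURF2 and ITGA3, not all of which have a value in the fit of 12 libraries.

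The list of EGFR family receptors, ligands and regulators had 6 of 111 distal regions higher (5.41%) and 0 lower. Over all such regions of any gene 1.78% were higher and 0.289% lower. Of the 6, 2 are the EGFR regions given above. The gene TGFA encodes the EGFR ligand TGF-alpha, and chr2:70606673-70608029 lies 53387 bases from its start. This region read 88.7, 57.2 and 66.5 in EGFR/NGFR-High against 33.7, 27.9 and 25.5 in EGFR-High (2.12-fold, log2 difference 1.08 ± 0.13, adjusted p = 5.38e-07). Regions near LRIG1, an inhibitor that leads to loss of EGFR from the membrane, were 1.67-fold (adjusted p = 0.00161) and 2.16-fold (adjusted p = 0.0195) higher. A region near NRG2, a ligand of ERBB receptors, was 1.8-fold higher (adjusted p = 0.00252). The neurotrophin list had 4 of 99 higher (4.04%) and 0 lower. The NGFR regions were 2 of these, and another was near TRAF6, an adaptor of NGFR signalling (18.8, 18.4 and 20.3 against 5.98, 8.04 and 10.8, 2.03-fold, adjusted p = 0.0102).

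Of the genes of neural crest and Schwann cells, 7 of 169 distal regions were higher (4.14%) and 0 lower. The shares over all genes were 1.78% and 0.289%. A region near AQP1, a water channel, read 20.8, 17.5 and 12.4 against 5.98, 4.26 and 5.87 (2.63-fold, adjusted p = 0.00063). Regions near the transcription factor gene SOX5 were 2.25-fold and 1.67-fold higher, and regions near the adhesion molecule genes NRCAM and L1CAM 1.97-fold, 1.58-fold and 1.45-fold. Of the melanocyte genes, 4 of 174 were higher (2.3%, near the share over all genes) and 1 was lower. The median log2 difference of the 174 was -0.08. The higher ones were 3 regions near MITF and 1 near EDNRB, the endothelin receptor of the melanocyte lineage. At chr3:69710183-69711082 near MITF the values were 53.0, 36.4 and 28.8 against 14.1, 15.6 and 19.1 (2.02-fold, adjusted p = 0.000195). The lower one was near SLC24A5, an ion exchanger of the melanosome (11.01, 8.03 and 9.92 against 13.2, 12.8 and 20.1, log2 difference -0.90, adjusted p = 0.0292). Its call was lost in 6 of 14 other settings, not counting that of absent peaks at a fold enrichment of 1.

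Of the genes of the primed and undifferentiated state, 12 of 199 distal regions near 10 genes were higher (6.03%) and 0 lower. All genes together had 1.78% higher and 0.289% lower. This list holds genes that the study links to the resistant state, so it was chosen on related data. A region near F2RL1, a receptor cleaved by proteases, stood at 18.2, 11.3 and 12.9 against 3.84, 4.26 and 4.9 (2.76-fold, adjusted p = 0.000392). CAV1, the coat protein of caveolae (2.07-fold), NT5E, an ectonucleotidase (2.08-fold), THBS1, a matrix glycoprotein (2.32-fold), TGM2, a protein crosslinker (1.86-fold), and WNT5A, a Wnt ligand (1.93-fold), also had a region that was higher.

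Of the matrix and integrin genes, 11 of 168 distal regions near 7 genes were higher (6.55%) and 0 lower, with a median log2 difference of 0.10. For all genes the shares were 1.78% and 0.289%. A region in ITGA3, chr17:50064258-50065573, read 80.9, 50.6 and 60.5 against 23.1, 28.4 and 34.3 (1.95-fold, adjusted p = 1.4e-05). The ITGA3 region shown above is chr17:50050558-50051948 and read 29.8, 21.7 and 22.8 against 8.96, 11.4 and 12.2 (1.92-fold, adjusted p = 0.00461). The ITGB5 region shown above, in an intron of this integrin beta chain at chr3:124860503-124861128, read 37.2, 21.7 and 22.8 against 13.7, 10.4 and 9.79 (2.01-fold, adjusted p = 0.00238). COL5A1, COL6A3, COL15A1, SPARC and ITGB3 made up the rest.

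The TGF-beta and activin list had 7 of 168 distal regions higher (4.17%) and 1 lower, against 1.78% and 0.289% over all genes. Regions near SMURF2, a ubiquitin ligase that limits the pathway (2.75-fold, adjusted p = 0.000676), TGFBI, a matrix protein induced by it (2.55-fold, adjusted p = 0.00214), and ID1 (1.61-fold and 1.9-fold) were higher. Each ID1 call was lost in 6 of 14 other settings, not counting that of absent peaks at a fold enrichment of 1. Near PMEPA1, a feedback inhibitor, 3 regions were higher, and the one shown above, chr20:57772232-57773175, read 36.9, 22.7 and 28.8 against 14.9, 13.7 and 16.2 (1.65-fold, adjusted p = 0.02). The PMEPA1 and ID1 regions all lie on chromosome 20, where 3.76% of tested regions were higher, the highest share of any chromosome. The TGFBI region lies on chromosome 5, where 2.65% were. A region near LTBP1, which anchors latent TGF-beta, was lower, at 16.4, 14.2 and 12.9 against 30.3, 22.2 and 15.2 (log2 difference -0.83, adjusted p = 0.018). The deposited values of the sorts overlap there, and the call was lost without EGFR-High library 1 (adjusted p = 0.227) or 2 (0.083), without EGFR/NGFR-High library 1 (0.115) or 3 (0.0662), and without normalization (0.102), while the log2 difference stayed between -0.85 and -0.57.

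The YAP and TEAD list had 4 of 139 distal regions higher (2.88%) and 0 lower, against 1.78% and 0.289% over all genes. The 4 lay near AMOTL1, AMOTL2 and the target gene ANKRD1 (2.0-fold, adjusted p = 0.0167). Genes of the epithelial to mesenchymal transition had 1 of 79 higher (1.27%), near TWIST2. For the genes of the AP-1 factors themselves 0 of 51 distal regions and 0 of 15 start regions were called in either direction by limma. Of these, 10 distal and 0 start regions had an unadjusted p under 0.05 in limma, as had 11636 of all 86712 tested regions and 9.36% of all start regions. Housekeeping genes had 1 of 51 distal regions higher, near YWHAZ, and genes of other cell types 1 of 45, near VWF, so that neither reference list was at 0.

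At the level of presence, 3675 of 151844 regions had a peak in 3 of 3 EGFR/NGFR-High and in 0 of 3 EGFR-High libraries (2.42%), and 277 had the reverse (0.182%). The gained regions were weak: their median fold enrichment over the 3 libraries was 5.13, and 34 reached 10. The strongest lay near GDPD4 (14.6, 15.1 and 8.93), TBC1D22A (17.9, 11.3 and 8.93), KALRN (15.5, 9.45 and 11.9), WNT3 (17.9, 9.45 and 8.93) and SACM1L (11.9, 13.2 and 10.4). The region near GDPD4 is at a promoter, and that of KALRN, a guanine nucleotide exchange factor, in an intron. All 5 had a peak in 3 of 3 NGFR-High libraries. In the Mix libraries only the region near WNT3, a Wnt ligand, had a peak, in 1 of 3.

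The strongest regions present only in EGFR-High of the pair lay near LRP6 (9.39, 8.51 and 6.36), UCMA (8.11, 8.98 and 6.85), FMO1 (6.4, 5.2 and 8.32), BMP6 (7.26, 6.15 and 6.36) and AP4E1 (6.83, 6.62 and 5.38). LRP6 is a Wnt co-receptor and BMP6 a ligand of the TGF-beta superfamily. The region near LRP6 had a peak in all NGFR-High and Mix libraries, whereas those near FMO1, BMP6 and AP4E1 had none in either. AP-1 letters were in 43.9% of the 3675 gained and 7.94% of the 277 lost regions. The share over all regions counted for presence was not computed. The 18.1% given above is for regions with a peak in all 6 libraries, which include no gained or lost region.

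EGFR/NGFR-High library 1 had the most peaks, so the gained regions were counted with lists of equal length as well. With the 100000 strongest peaks of each library, 1600 regions were gained, and with 50000 they were 674. The lost regions numbered 410 and 277 with these lists. Without EGFR/NGFR-High library 1, 4412 regions were gained and 846 were lost. Leaving out EGFR-High library 2 gave 6116 and 528, EGFR/NGFR-High library 2 gave 5811 and 463, and EGFR/NGFR-High library 3 gave 7167 and 442, since fewer libraries have to meet the condition. Leaving out EGFR-High library 1 gave 989 lost regions and EGFR-High library 3 gave 769.

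The regions were then read in libraries that took no part in the comparison. These are the NGFR-High and Mix libraries, whose labels do not name high EGFR. Of the 1282 higher regions, 939 had a peak in all 6 of these libraries, and NGFR-High was above Mix in 904 of them (96.3%), with a median log2 difference of 0.80. Of the 253 lower regions, 224 had a value, and NGFR-High was higher in 48 (21.4%), with a median of -0.36. Over all 78209 regions the share was 50.1% and the median 0.00118. Spearman's correlation between the 2 differences was 0.313 over all regions and 0.688 over the called ones, given as a description across regions of the same libraries. Some whole chromosomes shift in both differences, as given below, and the part of this in the correlation was not tested. All 1282 higher regions had a peak in each NGFR-High library, and 78.1 to 83.2% had one in a Mix library. Of all 86712 tested regions 78209 had a peak in all 12 libraries, so presence was common in tested regions. Of the 3675 gained regions, 31.6% had a peak in 3 of 3 NGFR-High and 7.29% in 3 of 3 Mix libraries, against 66.9% and 63.1% of all consensus regions. Of the 277 lost regions these shares were 4.69% and 20.9%.

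**Figure D4:**
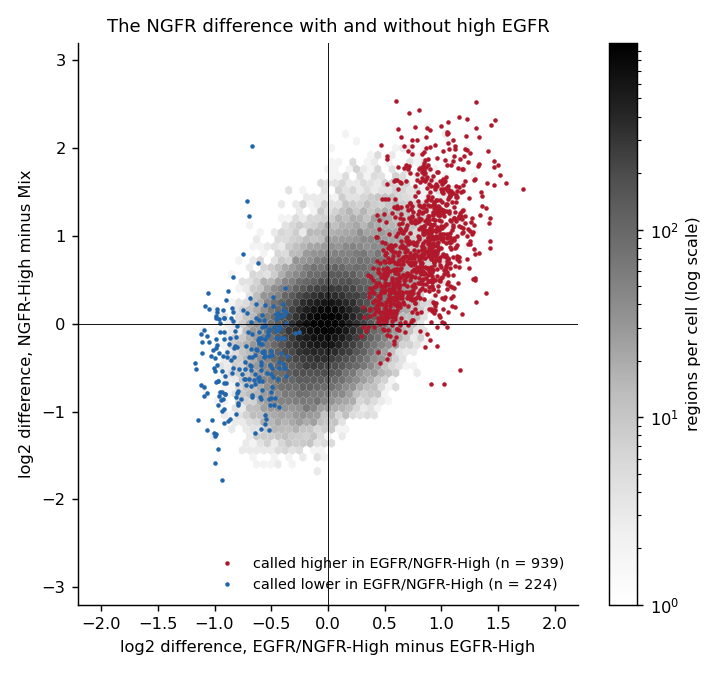
Log2 difference of EGFR/NGFR-High minus EGFR-High (horizontal) against NGFR-High minus Mix (vertical) for the 78209 regions with a peak in all 12 libraries (grey cells, darker for more regions), with called regions as points. The 939 higher regions lie mostly above 0 on the vertical axis, and the 224 lower regions mostly below.

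The median over a whole chromosome differed between the sorts as well. The median log2 difference was -0.11 over the 4606 tested regions of chromosome 8, -0.10 on chromosome 4, -0.08 on chromosome 15 and 0.09 on chromosome 5. In the same order, the medians of NGFR-High minus Mix were -0.11, -0.0332, -0.0769 and 0.0814. The signs were not the same on every chromosome, as chromosome 9 stood at -0.0311 for the compared sorts and 0.0288 for NGFR-High minus Mix. The 3 libraries of one sort lay wholly above those of the other on 18 of 23 chromosomes, with EGFR/NGFR-High lower on 11 and higher on 7. On chromosome 8 the median deviation of each EGFR/NGFR-High library from the mean of the 6 lay between -0.0686 and -0.025, and that of each EGFR-High library between 0.043 and 0.0626. On chromosome 5 the order was the reverse, with 0.0475 to 0.0531 and -0.0564 to -0.0354. Bins of 10 Mb were read on chromosomes 4, 5, 8 and 15 only, chosen for their shift, and bins with few tested regions were left out. The 15 bins on chromosome 8, 19 on chromosome 4 and 9 on chromosome 15 all had a median below 0. The 18 on chromosome 5 all had one above 0. Chromosome 8 held 48 of the 253 lower regions, or 1.04% of its tested regions, and chromosome 20 had the highest share of higher regions, 3.76%. When each library's chromosome medians were removed before the fit, which was tried after the data were seen, 1321 regions were called, 1120 of them higher. Whether the DNA copy number of these chromosomes differed between the sorts was not tested, so a log2 difference there need not be one of openness alone.

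**Figure D5:**
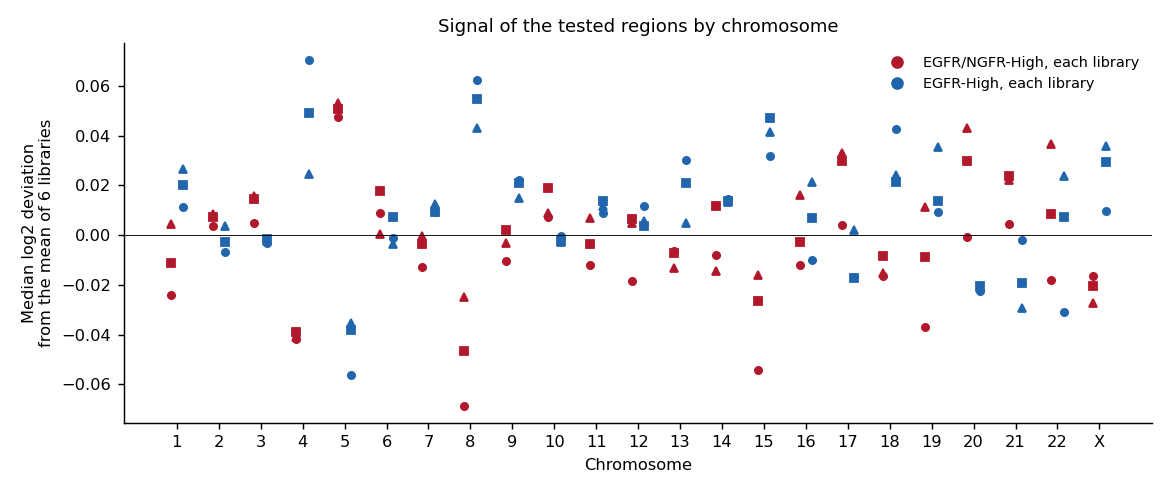
Median log2 deviation of each library from the mean of the 6 libraries (vertical), over the tested regions of each chromosome (horizontal); colours give the sort and symbols the library number. The ranges of the sorts are apart on 18 of 23 chromosomes, and the median differences are largest on chromosomes 4, 5, 8 and 15.

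Expression of the nearest genes was read in 1 single-cell RNA-seq sample of untreated WM989, whose deposited labels give each cell's state. Per the study's methods it pools cells grown from a mixed sort and from an EGFR/NGFR-high sort. These cells were read after several doublings, whereas the ATAC cells were read directly after the sort. A UMI is RNA that was detected and not the protein gate of the ATAC sorts, and 78.2% of the primed cells had an EGFR UMI. Of 2222 cells labelled primed with at least 1 EGFR UMI, 997 had an NGFR UMI and 1225 had none, with a median depth of 81714 and 56588 UMIs per cell, so cells with an NGFR UMI were also the deeper ones. Of the cells not labelled primed, 2.46% had an NGFR UMI (median depth 52835), against 44.5% of the primed cells (median depth 58253). As this is 1 sample there is no test, and the intervals cover counting error only. For 685 genes near higher regions with at least 20 UMIs, the median log2 ratio of cells with over cells without NGFR UMIs was 0.06, and for 122 genes near lower regions it was 0.02. It was 0.03 for all 12399 genes near a tested region. These values moved when the cells labelled r1 and r2 were read apart: near higher regions the medians were 0.0296 and 0.0157, near lower regions -0.0107 and -0.0325, and over all genes 0.0123 and -0.0103. The pooled medians thus lay above those of both subsets, and that near lower regions changed sign. The ratio was above 0 for 63.9% of the genes near higher regions, 54.9% of those near lower regions and 57.9% of all.

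Single genes differed more. Of 38 listed genes other than EGFR and NGFR with a higher distal region and at least 20 UMIs, 19 were higher in cells with NGFR UMIs by intervals that do not overlap, 6 were lower and 13 had overlapping intervals. The order held in r1 and in r2 for 16 of the 19 and 5 of the 6. Of all 12399 genes 16.3% were higher and 8.09% lower by the same measure, and of the 685 genes near higher regions 25.7% and 10.4%. As the lists were chosen with earlier results of these data known, the counts of the 38 are no independent evidence. Intervals narrow with the number of UMIs, of which the 38 genes had a median of 5774 against 2406 for all genes, and the part of this in the counts was not tested. The housekeeping gene YWHAZ is among the 19. TGM2 was at 100.2 CPM (95% exact Poisson interval 98.1 to 102.4) with NGFR and 66.1 (64.4 to 67.9) without. AQP1 was at 24.5 (23.5 to 25.6) and 16.4 (15.6 to 17.3), and ITGA3 at 262.3 (258.8 to 265.8) and 218.5 (215.3 to 221.8). The 6 genes with the opposite order were MITF, SOX5, SEMA3C, SLIT2, ID1 and WNT5A, the last at 55.0 (53.4 to 56.6) and 62.2 (60.5 to 64.0). ZFP36L2, near the region with the largest decrease, was at 119.6 (117.3 to 122.0) and 96.6 (94.5 to 98.8). Of the genes nearest to the 10 regions with the largest increase, CD28, AKR1B15, WNT5B, OPTC and B4GALNT2 had at most 20 UMIs in the 2222 cells together.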

How the data were processed

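ATAC-seq libraries of sorted WM989 cells were grouped by the sort in the labels. The authors aligned paired reads to hg38 with Bowtie2 2.3.4.1, removed poor alignments (SAMtools 1.1) and duplicates (Picard), and called peaks per library in MACS2 2.1.1.20160309. Each deposited peak has a fold enrichment (a ratio over background, with 1 added to both) and a −log10 q-value. Within a library all fold enrichments are whole multiples, within 0.01 of a step, of 1 value, from which the background pileup was computed. Total read numbers are not in these files.

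Repeated intervals were dropped, keeping the highest fold enrichment. Intervals of all 12 libraries were merged, and 151844 regions with a peak in at least 3 libraries were kept. Regions with a peak in all 6 compared libraries were tested with limma 3.58.1 (R 4.3.3, trended prior, two-sided), which was tested on simulated data. A list holds no value below the caller's threshold, so absence of a peak is not absence of signal. Single values were compared by exact permutation tests. GENCODE 44 on hg38 gave starts of protein-coding genes, and sequences were read from hg38. UMI counts of the single-cell sample, which the authors deposited with their cell state labels, were summed and scaled to CPM, counts relative to the total UMIs of the cells. Doublets were not called again, and the 9 other single-cell samples were not used here.

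The rule named EGFR and NGFR, listed genes with a called start region, the 10 largest differences each way among called regions without overlap within 100 kb of a start, and the 5 strongest regions each way by presence. The distal regions of listed genes, genes with several regions and the single expression values were named after their values were seen. Some regions and genes that fall under the rule are not reported here. Members and lists were chosen with earlier results of these data known. Alternatives covered normalization, absent peaks, the libraries in the fit, the measure, the regions, list length and each left-out library. Shares have 95% Wilson intervals.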

Additional observations from a re-analysis of the deposited data

Results flagged for a closer look

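The differences of the 2 pairs of sorts, EGFR/NGFR-High minus EGFR-High and NGFR-High minus Mix, were compared in 1 limma fit of the 12 libraries. This test was chosen after the data were seen. Of 78209 regions with a peak in all 12, the first difference was above the second in 463 and below it in 740 (adjusted p under 0.05, 1.54% of regions), and 11185 had an unadjusted p under 0.05. In the same fit 6149 regions were higher and 5664 lower in NGFR-High than in Mix cells, while 779 and 157 differed between EGFR/NGFR-High and EGFR-High. Groups of 3 libraries are too small for a check of single outlying values.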

How the results depend on the processing

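The count of called regions (1535, of which 1282 higher and 253 lower) moved by over 1.5 times in several settings. It was 4897 (4865 and 32) without normalization, 0 with absent peaks at a fold enrichment of 1 (17202 at an unadjusted p under 0.05 in limma), and 936 (779 and 157) with 12 libraries in the fit. That fit also tested fewer regions (78209), in which 1163 of the 1535 have a value, so its count differs in regions as well. The lower regions alone moved to 544 with median centring and 166 with windows of fixed width. Leaving out 1 library gave 248 to 1627 called regions, 198 to 1405 higher and 50 to 222 lower, with the fewest without EGFR/NGFR-High library 1. The causes were not tested.

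Library numbers were checked for pairing. Same-numbered libraries had correlated deviations of 0.138, 0.0478 and 0.141, and those of different numbers -0.117 to -0.00406. The numbers were not taken as pairs in the main fit, although every library correlated best with its own number. With the replicate block 2300 regions were called, 1783 higher and 517 lower. At the EGFR and NGFR starts the replicate block left the mean differences at -3.21 and 9.93, each with an exact sign-flip permutation p of 0.25, the smallest that 3 pairs allow.

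Regions with a peak in 3 of 3 against 0 of 3 numbered 3675, and 1600 and 674 with 100000 and 50000 peaks per library. The reverse (277) numbered 95 with a −log10 q of at least 5 and 178 with a fold enrichment of at least 5, a setting chosen after seeing the data. Leaving out 1 library gave 4412 to 7167 and 442 to 989. The difference at the EGFR start ranged from -4.66 to -1.63, at the NGFR start from 7.61 to 11.1, of the Jaccard index from 0.00965 to 0.0242 and of the number of peaks from 11404 to 20727, with no change of sign.

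Of 79 named called regions none changed direction in the settings that test the same regions. The normalized values of the sorts overlap in few of them, so leaving out 1 library could hardly turn a direction. All 79 lost the call with absent peaks at 1, 47 lost it without EGFR/NGFR-High library 1 and 10 with chromosome medians removed. Of the 79, 28 kept it in every setting that tested them but absent peaks at 1. Regions without a peak in all 12 libraries have no value in the fit of 12. Median log2 expression ratios near higher regions were 0.0296 and 0.0157 in the cells labelled r1 and r2 alone, those near lower regions were -0.0107 and -0.0325, and that of all genes was -0.0103 in r2. Of 48 motif shares under other windows or regions, 22 moved beyond their interval. A window of 50 bases either side of the summit lies inside that of 100 and cannot hold more matches. Moves there do not by themselves measure stability.

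A peak under the caller's threshold is not listed, which limits the comparison of weak regions.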
